A study of Rattus norvegicus with 11 samples.

Results

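The comparison asked in which renal cortex transcripts the effect of gastric bypass differed between diabetic and non-diabetic rats. It was computed as the interaction, the change from DM+Sham to DM+RYGB minus the change from Control+Sham to Control+RYGB, and it used all 11 arrays of the series. A positive value means that the signal went up more, or down less, with bypass in diabetic rats than in non-diabetic rats. The members are the 28489 of 30367 probes that stood well above background on 2 or more arrays, and the 14358 genes with a name in RefSeq that these probes measured. For each gene called in the interaction, the group whose mean lay apart from the others was then recorded.

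The animals were SD rats. Diabetes of type 1 was induced with streptozotocin (STZ), a toxin taken up by the insulin-producing beta cells, and SD rats without diabetes were the controls. After 4 weeks, surgery followed in both kinds of rat, either sham or gastric bypass of the Roux-en-Y type (RYGB), and renal cortex was taken a further 4 weeks later. The groups were Control+Sham (3 arrays), DM+Sham (3 arrays), Control+RYGB (3 arrays) and DM+RYGB (2 arrays), with DM standing for diabetes. Sex, age and STZ dose of the rats were not given in the sources used here, nor was it stated that the arrays of a group came from separate rats, so the p-values measure the spread between these samples, which may be technical.

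Gastric bypass joins a small stomach pouch to the jejunum, so that food reaches the lower gut early, and it is known for altering gut hormones, bile acids and glucose handling. The cortex is mostly proximal tubule, the nephron segment that reabsorbs glucose, amino acids, phosphate and bicarbonate, secretes organic anions and drugs, makes glucose and burns fatty acids and ketones. Diabetes raises the load on this segment. Glomeruli with their podocytes, the distal nephron, vessels and immune cells make up the rest of the tissue. Interferon-stimulated genes, which come up again below, are switched on together by the STAT and IRF transcription factors in cells that sense viruses, nucleic acids or interferon.

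On the arrays 77.69% to 93.5% of probes stood well above background, the 75th percentile of signal ran from 864.4 to 2487 units, and no probe was saturated. Arrays 2 and 3 of DM+Sham differed by 0.0208 (spread of log2 differences for single spots), less than the spot noise of 0.0709 and 0.0666 within those arrays, and arrays 2 and 3 of Control+RYGB differed by 0.05 against noise of 0.0846 and 0.0755, so each of these pairs was averaged and counted as 1 sample. That left 3 Control+Sham samples and 2 samples in each other group, 9 in all. The 2 DM+RYGB arrays differed by 0.408, more than the 0.108 to 0.19 of the other pairs within a group. The Control+RYGB arrays all lay at slide position 2 and no other array did, so that slide position and this group cannot be told apart. Arrays were scanned on 5 days, and each day from 2 to 5 held arrays of more than 1 group. No day held both Control+Sham (days 1, 2 and 3) and Control+RYGB (days 4 and 5). Between these groups, bypass in non-diabetic rats and scan day cannot be told apart.

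Array 2 of DM+RYGB also held strong muscle transcripts. The summed signal of 27 heart muscle genes (linear, in units of each array's 75th percentile) was 5.91 to 10.5 on the 9 arrays of the other groups, 15.6 on DM+RYGB 1 and 1050 on DM+RYGB 2. For 23 skeletal muscle genes it was 2.85 to 4.41 on those 9 arrays, 2.92 on DM+RYGB 1 and 160 on DM+RYGB 2. Here and below, array values are log2 signal relative to the array's 75th percentile, and effects are log2 differences. Myh6 read -7.29, -7.33 and -6.86 on the Control+Sham arrays, -6.88, -7.29 and -7.04 on DM+Sham, -4.91, -4.59 and -5.10 on Control+RYGB and -3.98 and 6.53 on DM+RYGB. Myh6 is the heavy chain of heart myosin, and its strong signal lay in DM+RYGB 2. The part of muscle RNA in the other results was not tested. None of the 27 heart genes was called by limma in the interaction with both arrays in the fit (4 higher at an unadjusted p under 0.05), against 25 called higher without DM+RYGB 1 and 3 higher and 3 lower without DM+RYGB 2. Counts below are therefore also given without each DM+RYGB array for some lists, and counts of other lists moved as well. The plot of summed marker levels by array shows this array beside the kidney lists.

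**Figure D1:**
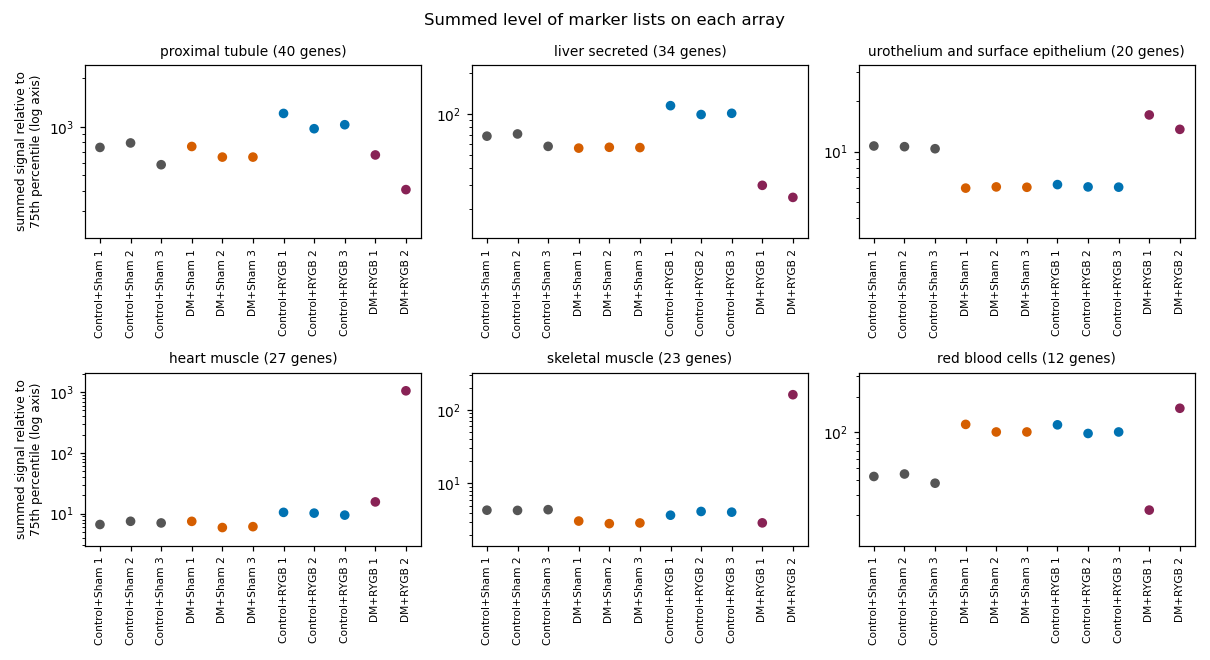
Summed linear signal of 6 marker lists on each of the 11 arrays, in units of the array's 75th percentile on a log axis, with points coloured by group. Heart muscle genes sum to 1050 on DM+RYGB 2 and to 15.6 or less on every other array, while the proximal tubule and liver-type lists are highest in Control+RYGB and the urothelial list is lowest in DM+Sham and Control+RYGB.

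A pair of promoters is shown first, of an interferon gene called higher and one called lower below. Promoters (the 250 bases before the start listed in the promoter table) were taken from RefSeq on GRCr8, among 24206 genes with 1 listed start. Both strands were searched for GAAA followed after any 2 bases by GAAA, the core of the element bound by IRF and STAT factors in interferon-stimulated genes, and for TAGGTCA, the core of the element bound by ROR and REV-ERB receptors in clock genes. Each sequence is printed 5′ to 3′ on the gene's strand, with the match in capitals.
Ifit3, chr1:241527076-241527325, plus strand: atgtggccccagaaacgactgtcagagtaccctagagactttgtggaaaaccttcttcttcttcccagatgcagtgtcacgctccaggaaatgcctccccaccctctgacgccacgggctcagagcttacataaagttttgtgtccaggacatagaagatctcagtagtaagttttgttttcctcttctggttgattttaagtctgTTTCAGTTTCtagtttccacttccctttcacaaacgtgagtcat
Cxcl10, chr14:15988816-15989065, plus strand: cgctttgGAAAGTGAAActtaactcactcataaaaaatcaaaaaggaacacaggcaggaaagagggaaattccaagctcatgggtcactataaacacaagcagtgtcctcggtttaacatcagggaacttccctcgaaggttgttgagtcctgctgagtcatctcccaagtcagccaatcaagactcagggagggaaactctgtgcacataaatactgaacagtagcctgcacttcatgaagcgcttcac
The matches begin 44 bases before the start in Ifit3 and 243 in Cxcl10. For some other genes the RefSeq gene begins upstream of the listed start, so that part of the window searched lies within the gene. The GAAA pair or its reverse complement occurs in 803 of the 24206 promoters (3.32%) and in 22 of 33 promoters of the interferon list (66.7%). TAGGTCA occurs in 545 of them (2.25%) and in 1 of 18 promoters of the clock list, that of Bmal1, where the match lies within the RefSeq gene. A match describes letters in the window and does not show that a factor binds there.

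The bypass effect differed with diabetes in 2614 of 14358 named genes (18.2%): 939 were higher in the interaction (6.54%) and 1675 were lower (11.7%). A gene was called where limma's adjusted p was under 0.05 with the same sign under each of 3 ways of scaling the arrays. Over all probes 1858 were higher (6.52%) and 2747 lower (9.64%). With the 75th percentile alone the split over all probes was 3527 higher against 3099 lower (12.4% and 10.9% of probes, 53.2% of calls higher), with median scaling it was 2206 against 4003 (35.5%) and with quantile scaling 2669 against 3617 (42.5%), as the median interaction of all probes moved from 0.136 to -0.064 and -0.036 on the log2 scale. Without either DM+RYGB array in turn, 739 of the genes called higher (5.15% of named genes) and 1533 of those called lower (10.7%) kept sign and threshold. Differences taken only between arrays scanned on the same day, an alternative added after seeing the data, gave 4 values per gene, all with the sign of the interaction for each of the 2614 genes. These values come from the arrays that gave the calls, so the shared sign is a description and no support for them. With scan day as a block in the fit, which uses up residual degrees of freedom, 89 probes were higher and 115 lower. In that fit 7 proximal tubule genes were lower, and 1 interferon and 4 urothelial genes were higher.

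In most called genes whose class held under the 3 scalings, the group that lay apart was DM+RYGB. A group was said to lie apart when its mean was farther from the nearest other group mean than those 3 means spanned, which describes the values that gave the call and is not a test. DM+RYGB lay low for 804 genes (5.6% of named genes, median interaction -1.22) and high for 166 (1.16%, 1.56). DM+Sham lay high for 110 (0.766%, -1.02) and low for 46 (0.32%, 2.08), Control+RYGB low for 58 (0.404%, 1.26) and high for 38 (0.265%, -1.71), and Control+Sham high for 81 (0.564%, 2.25) and low for 20 (0.139%, -1.38). A further 71 genes were crossed, with Control+Sham and DM+RYGB on the same side and DM+Sham and Control+RYGB on the other: 51 higher in the interaction (0.355%) and 20 lower (0.139%). The other 1220 called genes were graded between the groups, 39 higher (0.272%) and 59 lower (0.411%), or changed class with the scaling, 498 higher (3.47%) and 624 lower (4.35%). The plot of bypass effects with and without diabetes shows where each class falls.

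**Figure D2:**
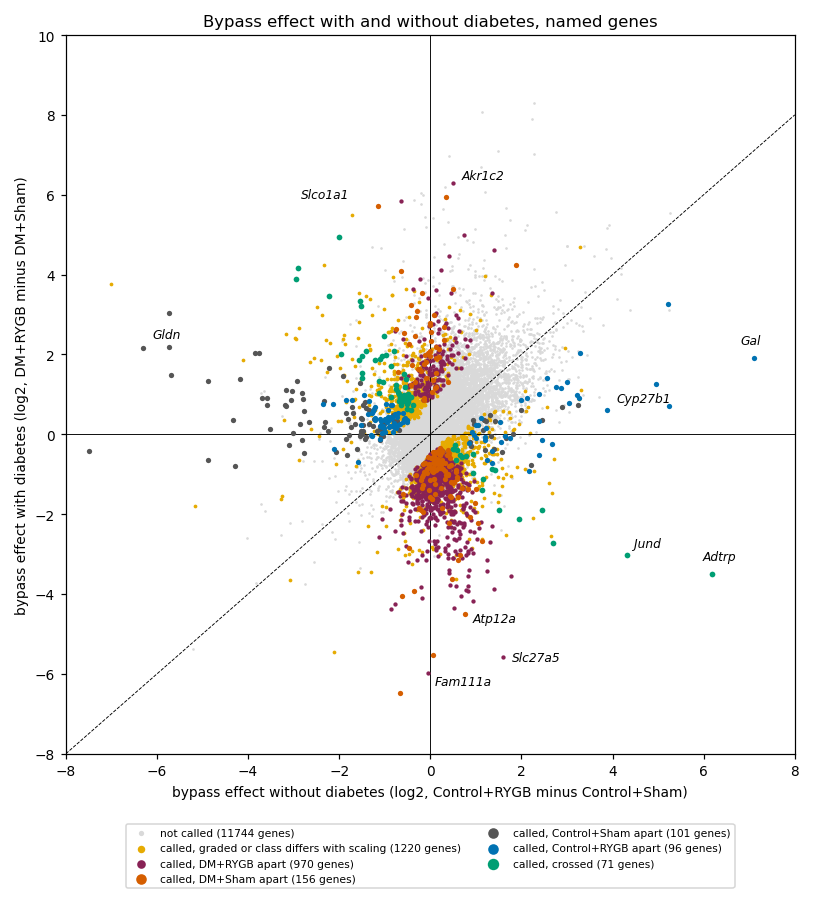
Bypass effect in non-diabetic rats (horizontal, log2 Control+RYGB minus Control+Sham) and in diabetic rats (vertical, log2 DM+RYGB minus DM+Sham), 1 point per named gene, coloured by class, with the dashed line marking equal effects. The 970 genes with DM+RYGB apart spread along the vertical axis, the 101 with Control+Sham apart and the 96 with Control+RYGB apart spread along the horizontal axis, and the crossed genes Adtrp and Jund lie where bypass effects had opposite signs.

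The lower side of the interaction held much of the proximal tubule. Of 40 measured proximal tubule genes 27 were called lower and 1 higher, against 11.7% and 6.54% of all named genes. Of the 27, 21 had DM+RYGB low, as had 804 of all 1675 genes called lower. The list's median interaction was -1.54 (-1.74 with median and -1.43 with quantile scaling), beside 0.06, -0.14 and -0.06 for all named genes. It was lower for 33 members without DM+RYGB 1 and for 26 without DM+RYGB 2. In the separate comparisons, 28 members fell with bypass in diabetic rats (20.1% of all named genes fell), while 2 rose and none fell with bypass in non-diabetic rats (4.94% and 10.1% of all). The summed signal of the 40 genes was 408 to 669 in DM+RYGB, 582 to 794 in Control+Sham, 649 to 755 in DM+Sham and 973 to 1210 in Control+RYGB. In whole cortex, fewer cells of a type and less RNA per cell cannot be told apart.

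Transporters of the basolateral side, which pass reabsorbed solutes on to the blood, had large differences. Slc4a4 read 4.67, 4.66 and 4.55 on the Control+Sham arrays, 4.68, 4.91 and 4.89 on DM+Sham, 5.57, 5.49 and 5.62 on Control+RYGB and 0.49 and 0.72 on DM+RYGB. Slc4a4 is the sodium bicarbonate cotransporter of proximal tubule, and its DM+RYGB arrays lay below every other array while Control+RYGB lay highest. Its interaction was -5.12 ± 0.18 (SE, limma adjusted p = 6.8e-05), with a bypass effect of -4.18 ± 0.13 in diabetic rats, a fall, and of 0.94 ± 0.12 in non-diabetic rats, which was not called under all scalings. Slc2a2 read 3.55, 3.69 and 3.42 on the Control+Sham arrays, 3.62, 3.57 and 3.59 on DM+Sham, 4.43, 4.29 and 4.32 on Control+RYGB and -0.06 and -0.59 on DM+RYGB. Slc2a2 is the exit transporter for glucose (GLUT2), and it too lay lowest in DM+RYGB and highest in Control+RYGB, with DM+Sham inside the range of Control+Sham. Its interaction was -4.75 ± 0.26 (SE, limma adjusted p = 0.00021). Slc7a8, an amino acid exchanger of the basolateral side, had an interaction of -2.94 ± 0.20 (SE, limma adjusted p = 0.00044).

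Apical carriers were lower in DM+RYGB as well. The lactate and monocarboxylate carriers Slc5a12 and Slc5a8 had interactions of -4.88 ± 0.31 (SE, limma adjusted p = 0.00037) and -3.74 ± 0.21 (SE, limma adjusted p = 0.00027). Slc5a8 rose with bypass in non-diabetic rats, by 0.88 ± 0.14, and fell by 2.86 in diabetic rats, on the log2 scale. The water channel Aqp1 read 4.74 to 4.87 in Control+Sham and 3.37 and 3.22 in DM+RYGB, with an interaction of -2.03 ± 0.16 (SE, limma adjusted p = 0.00065). Members chosen after their values were seen include Slc5a2, the glucose carrier SGLT2, at -2.50 ± 0.28 (SE, limma adjusted p = 0.0022), and Cubn, the endocytosis receptor cubilin, at -2.94 ± 0.23 (SE, limma adjusted p = 0.0007). Hnf4a, a transcription factor of proximal tubule chosen in the same way, had an interaction of -1.16 ± 0.20 (SE, limma adjusted p = 0.0093). The single member called the other way, named for that reason, was Kap, an androgen-regulated kidney protein, for which DM+Sham lay low at 3.49 to 3.55 and the other groups at 5.10 to 5.80.

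Lists of enzymes and carriers that share this segment also held genes called lower, to differing degrees. Of 32 glucose transport and gluconeogenesis genes 9 were lower and 1 higher, 6 of them with DM+RYGB low. Over all named genes the shares were 11.7% lower, 6.54% higher and 5.6% lower with DM+RYGB low. As a whole the glucose list moved little, with a median of -0.17 and 22 genes not called. At an unadjusted p under 0.05 in limma, 7 of its genes were higher and 9 lower. G6pc1, the glucose-6-phosphatase that releases glucose, had an interaction of -2.94 ± 0.25 (SE, limma adjusted p = 0.00088), and Slc2a12, the glucose transporter GLUT12, had -1.63 ± 0.17 (SE, limma adjusted p = 0.0016). Of 29 organic anion and drug transporters 15 were lower and 3 higher (median -1.16), of 15 ketone and monocarboxylate genes 7 were lower and 1 higher (-0.90), and of 46 ammonia, acid-base and amino acid genes 13 were lower and 1 higher (-0.53). These lists share members with the proximal tubule list, so their counts are not separate from its count. Slc2a2 is also a glucose gene, Slc5a8 a ketone and monocarboxylate gene and Slc4a4 an acid-base gene. Abcc2, the apical multidrug resistance protein MRP2, had an interaction of -3.82 ± 0.24 (SE, limma adjusted p = 0.00035). Abcb1b, a P-glycoprotein drug pump, rose with diabetes in sham rats by 1.67 ± 0.11 and fell by 3.03 with bypass in diabetic rats, with an interaction of -3.58 ± 0.16 (SE, limma adjusted p = 0.00014).

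Genes that diabetes and bypass each raised, and that were low when both were present, included bile acid conjugation. Slc27a5 read -0.14, -0.20 and -0.36 on the Control+Sham arrays, 1.84, 1.96 and 1.97 on DM+Sham, 1.35, 1.40 and 1.36 on Control+RYGB and -3.40 and -3.96 on DM+RYGB. Slc27a5 makes the CoA esters of bile acids and very long chain fatty acids, and DM+Sham and Control+RYGB lay above Control+Sham while DM+RYGB lay below every other array. The gene rose with diabetes in sham rats by 2.13 ± 0.17, rose with bypass in non-diabetic rats by 1.60 ± 0.17 and fell by 5.58 with bypass in diabetic rats, an interaction of -7.18 ± 0.26 (SE, limma adjusted p = 7.3e-05). Baat read 0.09, 0.09 and 0.01 on the Control+Sham arrays, 1.84, 1.89 and 1.89 on DM+Sham, 1.49, 1.48 and 1.42 on Control+RYGB and -1.74 and -2.30 on DM+RYGB. Baat joins those CoA esters to taurine or glycine, and its groups took the same order without overlap. Its interaction was -5.29 ± 0.24 (SE, limma adjusted p = 0.00014). Among 23 bile acid genes 8 were lower and 3 higher (11.7% and 6.54% of all genes).

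Fatty acid oxidation and PPAR alpha targets were lower too, with 15 of 45 called lower, none higher, 11 with DM+RYGB low and a median of -0.75 (11.7%, 6.54% and 5.6% of all genes, with a median of 0.06). The unadjusted p was under 0.05 for none higher and 20 lower. Without DM+RYGB 1 the count was 20 lower and 4 higher, without DM+RYGB 2 29 lower and none higher. The list's median interaction was -0.44 without DM+RYGB 1 and -1.08 without DM+RYGB 2. Its summed signal was 438 on DM+RYGB 1 and 602 on DM+RYGB 2, the array with muscle signal. It was 453 to 534 in Control+Sham, 578 to 625 in DM+Sham and 720 to 840 in Control+RYGB. The list as a whole was thus below both sham groups on DM+RYGB 1 only, and the part of muscle RNA in this was not tested. Angptl4 read 1.77, 1.92 and 1.58 on the Control+Sham arrays, 3.08, 3.10 and 3.09 on DM+Sham, 2.55, 2.35 and 2.37 on Control+RYGB and -0.01 and 0.01 on DM+RYGB. Angptl4, an inhibitor of lipoprotein lipase and a PPAR target, was highest in DM+Sham and lowest in DM+RYGB, with no overlap between groups, and its interaction was -3.78 ± 0.19 (SE, limma adjusted p = 0.00018). Cyp4a1, the omega-hydroxylase of fatty acids, had -3.80 ± 0.30 (SE, limma adjusted p = 0.00067), with a rise in diabetic sham rats of 1.32 ± 0.20. For 11 of these 15 genes DM+Sham and Control+RYGB both lay above Control+Sham and DM+RYGB, an order held by 824 of the 1675 genes called lower in all (49.2%). No gene of the 42 in the respiratory chain and TCA cycle was called by limma under the 3 scalings (3 higher and 3 lower at an unadjusted p under 0.05), and their median of 0.01 changed sign with median scaling (-0.19).

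Liver-type secreted genes were lower in 14 of 34 cases and higher in 2 (11.7% and 6.54% of all genes), with a median of -0.71. The list's summed signal was 24.2 to 29.7 in DM+RYGB, 55.9 to 56.7 in DM+Sham, 57.6 to 71.1 in Control+Sham and 98.9 to 115 in Control+RYGB. Fibrinogen chains Fga and Fgb, which injured tubules also make, had interactions of -4.24 ± 0.24 (SE, limma adjusted p = 0.00027) and -3.65 ± 0.21 (SE, limma adjusted p = 0.00027). Serpina10, the inhibitor of coagulation factor X, rose with diabetes by 1.07 ± 0.15, rose with bypass in non-diabetic rats by 1.78 ± 0.15 and fell by 3.54 with it in diabetic rats. The interaction of Serpina10 was -5.32 ± 0.22 (SE, limma adjusted p = 0.00011). Fam111a, a nuclear protease, was among the lowest of the genes with DM+RYGB apart. Fam111a read 0.43, 0.76 and 0.35 on the Control+Sham arrays, 0.91, 1.05 and 1.08 on DM+Sham, 0.38, 0.55 and 0.53 on Control+RYGB and -5.22 and -4.77 on DM+RYGB, with no overlap between DM+RYGB and the rest and an interaction of -5.93 ± 0.27 (SE, limma adjusted p = 0.00014).

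Array values of 12 genes, chosen to show each class, are drawn together in the plot of arrays by group.

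**Figure D3:**
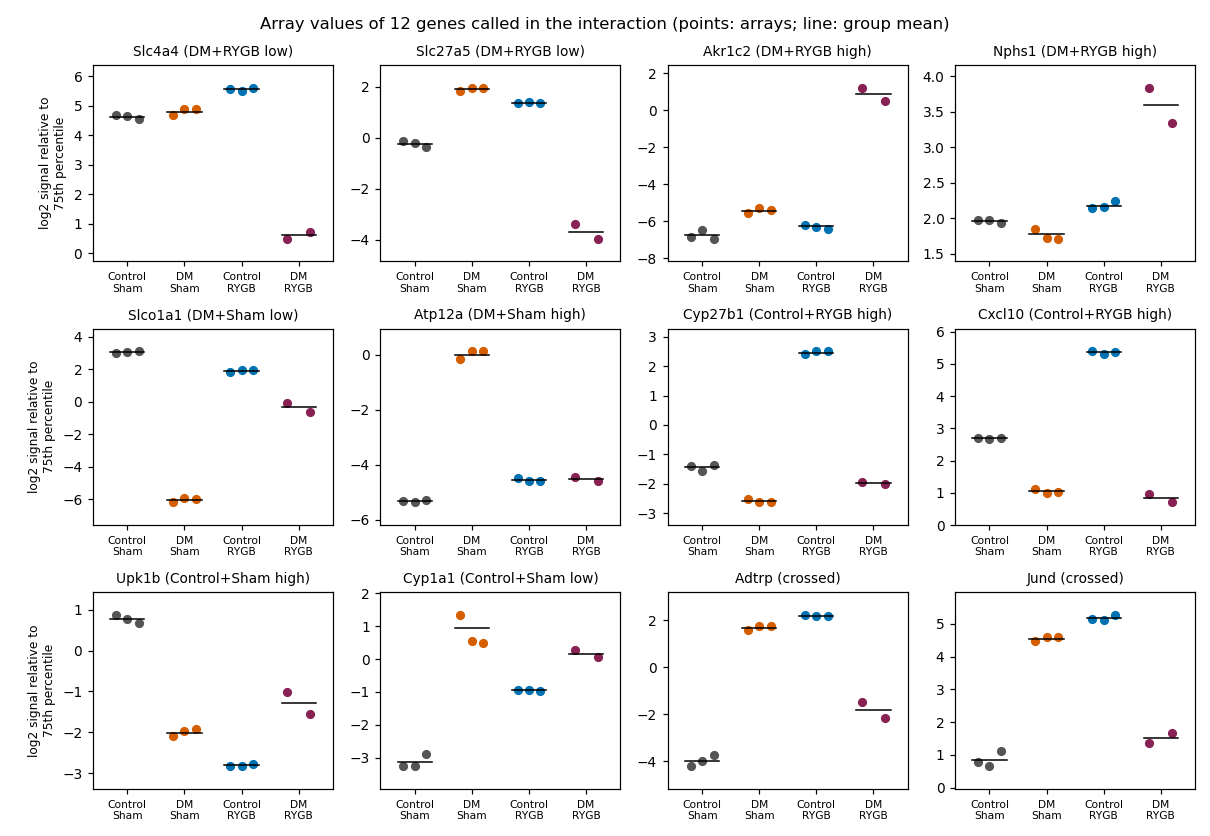
Log2 signal relative to the array's 75th percentile for 12 genes, with 1 point per array (3 in each group, 2 in DM+RYGB) and a line at the group mean over samples. The group in brackets lies apart, as with Slc4a4 at 0.49 and 0.72 in DM+RYGB and Atp12a at -0.14 to 0.13 in DM+Sham. Where the brackets read crossed, DM+Sham and Control+RYGB lie apart from the other groups, as with Jund at 4.47 to 5.26.

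DM+RYGB lay high for fewer genes, among them a few members of the glomerular and distal nephron lists, most of whose members were not called. Akr1c2 read -6.87, -6.46 and -6.94 on the Control+Sham arrays, -5.53, -5.29 and -5.38 on DM+Sham, -6.19, -6.30 and -6.39 on Control+RYGB and 1.23 and 0.50 on DM+RYGB, and this aldo-keto reductase of steroids stood well above background on all arrays but 2 of Control+Sham. Akr1c2 had an interaction of 5.81 ± 0.36 (SE, limma adjusted p = 0.00034). Pla2g2a, a secreted phospholipase, and Fabp2, the intestinal fatty acid binding protein, had 4.26 ± 0.35 (SE, limma adjusted p = 0.00082) and 4.03 ± 0.24 (SE, limma adjusted p = 0.0003). Nphs1 read 1.98, 1.98 and 1.94 on the Control+Sham arrays, 1.85, 1.72 and 1.71 on DM+Sham, 2.15, 2.16 and 2.24 on Control+RYGB and 3.84 and 3.34 on DM+RYGB. Nphs1 encodes nephrin of the podocyte slit diaphragm, and its DM+RYGB arrays lay above all others, which differed little from each other. The interaction of Nphs1 was 1.60 ± 0.23 (SE, limma adjusted p = 0.0046). Itga8, the integrin of mesangial cells, had 1.46 ± 0.21 (SE, limma adjusted p = 0.005), but its DM+RYGB mean was level with Control+Sham, DM+Sham and Control+RYGB lay lower, and its bypass effect in diabetic rats was not called. Of 23 podocyte genes 3 were higher and 1 lower, against 6.54% and 11.7% of all genes, and 19 were not called. The list's median was 0.30, or 0.10 with median scaling and -0.00 without DM+RYGB 1. Its summed signal was 110 to 132 in DM+RYGB and 85.8 to 98.7 elsewhere.

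Among distal genes, Trpv5, the calcium channel of the distal convoluted tubule, had 2.29 ± 0.26 (SE, limma adjusted p = 0.0022), and Slc26a4, the pendrin chloride-bicarbonate exchanger of intercalated cells, had 1.33 ± 0.23 (SE, limma adjusted p = 0.0086). Atp6v1c2, a proton pump subunit, had 1.31 ± 0.26 (SE, limma adjusted p = 0.014), also with DM+RYGB high. Elf5, a transcription factor of principal cells, had 2.40 ± 0.27 (SE, limma adjusted p = 0.0021), with Control+RYGB lowest and a bypass effect of -0.04 ± 0.20 in diabetic rats. Of endothelial genes, Cldn5, a tight junction claudin, had 2.07 ± 0.18 (SE, limma adjusted p = 0.001), Tek, the receptor of angiopoietins, 0.93 ± 0.15 (SE, limma adjusted p = 0.0071) and Icam2, an adhesion molecule, 0.80 ± 0.15 (SE, limma adjusted p = 0.012). Tek and Icam2 lost their calls without DM+RYGB 2. Of 23 principal cell and water transport genes 6 were higher and 2 lower (median 0.93), of 17 intercalated cell genes 3 were higher and 1 lower (0.36), of 31 thick limb and distal convoluted tubule genes 5 and 4 (0.29) and of 25 endothelial genes 3 and 2 (0.37), beside 6.54% and 11.7% of all genes. Without DM+RYGB 1 these medians were 0.67, 0.07, -0.01 and 0.29, in the same order. Without DM+RYGB 2 the principal cell count was 10 higher and 3 lower and that of intercalated cells 7 and 1, and without DM+RYGB 1 they were 6 and 4 and 2 and 3. Sgk1, the kinase through which aldosterone and insulin act on sodium channels, was a principal cell gene called lower, at -1.60 ± 0.14 (SE, limma adjusted p = 0.0011). Aqp1, given above with the apical carriers, was also called lower in the principal cell and water transport list. That list is thus not limited to the distal nephron. Cyp27b1, given below, was among the genes called lower in the thick limb and distal convoluted tubule list.

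Clock genes moved in both directions. Bmal1 and its partners CLOCK and NPAS2 drive the genes of the PER proteins and Nr1d1, and Nr1d1 (REV-ERB alpha) represses Bmal1 through elements of the TAGGTCA kind. Bmal1 read 1.22, 1.10 and 1.08 on the Control+Sham arrays, -0.17, -0.04 and -0.04 on DM+Sham, 1.01, 1.09 and 1.09 on Control+RYGB and -3.46 and -3.06 on DM+RYGB. The non-diabetic groups overlapped for Bmal1, while DM+Sham lay lower and DM+RYGB lowest, both without overlap. Its interaction was -3.07 ± 0.21 (SE, limma adjusted p = 0.00044), with a bypass effect of -3.15 ± 0.15 in diabetic rats and an effect of -0.09 ± 0.14 in non-diabetic rats. Nr1d1 and Ciart, a repressor of the clock, lay high in DM+RYGB, with 1.74 ± 0.15 (SE, limma adjusted p = 0.00088) and 2.17 ± 0.28 (SE, limma adjusted p = 0.0034). Of the 20 clock genes 3 were called higher and 4 lower, beside 6.54% and 11.7% of all genes. Npas2, Per2 and Wee1 were the others called lower and Dbp, a transcription factor driven by the clock, the other called higher, named for these counts after their values were seen. The time of day at which tissue was taken was not given in the sources used here.

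DM+Sham alone lay apart where diabetes changed the level in sham rats and bypass changed it in the opposite direction in diabetic rats. Of the 110 genes with DM+Sham high, 108 rose with diabetes in sham rats and 109 fell with bypass in diabetic rats. Of the 46 with DM+Sham low, 46 fell with diabetes and 45 rose with bypass. Class and effects come from the same group means, so these counts nearly follow from the definition and are no support. Over all named genes 6.38% rose and 7.82% fell with diabetes in sham rats, and 20.1% fell and 7.07% rose with bypass in diabetic rats. Slco1a1 read 3.03, 3.05 and 3.12 on the Control+Sham arrays, -6.18, -5.88 and -5.94 on DM+Sham, 1.87, 1.98 and 1.94 on Control+RYGB and -0.05 and -0.60 on DM+RYGB. Slco1a1 is an organic anion transporter of the apical membrane, and its DM+Sham arrays lay far below the rest while DM+RYGB lay below both non-diabetic groups. It fell by 9.11 with diabetes in sham rats, rose with bypass in diabetic rats by 5.72 ± 0.19 and fell by 1.15 with it in non-diabetic rats, an interaction of 6.87 ± 0.26 (SE, limma adjusted p = 7.5e-05). Zp2, a coat protein of the egg, was not well above background on any DM+Sham array, and its level in DM+RYGB was at least 18.9-fold higher (interaction 5.59 ± 0.26 SE, limma adjusted p = 0.00014). This bound sets the mean of the brighter group against the lowest signal well above background on each array of the dimmer group, or the probe's own signal where that is higher. Wnt2b, a WNT ligand, and Retn, the hormone resistin, had interactions of 4.74 ± 0.38 (SE, limma adjusted p = 0.00071) and 3.15 ± 0.28 (SE, limma adjusted p = 0.001), with Wnt2b well above background on 2 of 3 DM+Sham arrays.

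On the high side, Atp12a read -5.30, -5.36 and -5.26 on the Control+Sham arrays, -0.14, 0.13 and 0.12 on DM+Sham, -4.49, -4.60 and -4.58 on Control+RYGB and -4.45 and -4.57 on DM+RYGB. Atp12a is the non-gastric proton-potassium pump of collecting duct, and its levels in DM+RYGB and Control+RYGB overlapped while DM+Sham lay well above them. It rose with diabetes in sham rats by 5.30 ± 0.12 and fell by 4.50 with bypass in diabetic rats, an interaction of -5.27 ± 0.17 (SE, limma adjusted p = 6.8e-05). F12, coagulation factor XII, had -3.80 ± 0.28 (SE, limma adjusted p = 0.00055), and Cldn14, a claudin that limits calcium reabsorption in the thick limb, had -2.37 ± 0.21 (SE, limma adjusted p = 0.00095). Il24, a cytokine of the IL10 family, had -4.09 ± 0.88 (SE, limma adjusted p = 0.019), and it was well above background on 1 of the 2 DM+RYGB arrays, with -5.26 without DM+RYGB 1 and -2.93 without DM+RYGB 2. Slc22a7, an organic anion transporter of proximal tubule chosen after its values were seen, read 1.02 to 1.30 in DM+Sham and -2.26 to -1.04 in the other groups.

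Control+RYGB alone lay apart where bypass changed the level in non-diabetic rats. All 38 genes with Control+RYGB high rose with bypass in non-diabetic rats and all 58 with Control+RYGB low fell (4.94% and 10.1% of all genes). These counts too nearly follow from how the class was defined. The 2 groups of this comparison also differed in scan day and slide position. Cyp27b1 read -1.41, -1.55 and -1.34 on the Control+Sham arrays, -2.51, -2.63 and -2.62 on DM+Sham, 2.41, 2.49 and 2.50 on Control+RYGB and -1.93 and -2.00 on DM+RYGB. Cyp27b1, the enzyme that makes active vitamin D, lay far above the other groups in Control+RYGB. It rose with bypass in non-diabetic rats by 3.89 ± 0.11, and the effect in diabetic rats was 0.60 ± 0.12 and not called, an interaction of -3.28 ± 0.16 (SE, limma adjusted p = 0.00016). Gal read -4.58, -4.44 and -4.36 on the Control+Sham arrays, -4.43, -3.96 and -3.96 on DM+Sham, 2.58, 2.68 and 2.72 on Control+RYGB and -3.43 and -1.15 on DM+RYGB, so that galanin, a neuropeptide, rose by 7.10 ± 0.59 in non-diabetic rats and differed widely between the DM+RYGB arrays. The interaction of Gal was -5.20 ± 0.87 (SE, limma adjusted p = 0.008), or -4.06 without DM+RYGB 1 and -6.33 without DM+RYGB 2. Tat, the glucocorticoid-induced tyrosine aminotransferase, was not well above background in Control+Sham and at least 11.5-fold higher in Control+RYGB, with an interaction of -3.68 ± 0.37 (SE, limma adjusted p = 0.0016). Tat was well above background on no more than 1 of 3 DM+Sham and 1 of 2 DM+RYGB arrays, so its fitted value rests on dim signals outside Control+RYGB.

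Other genes high in Control+RYGB were Ccl20, a chemokine for lymphocytes and dendritic cells, at -2.90 ± 0.15 (SE, limma adjusted p = 0.00019), Qrfpr, a neuropeptide receptor, at -3.09 ± 0.21 (SE, limma adjusted p = 0.00044), and Ier5, an immediate early gene, at -2.08 ± 0.27 (SE, limma adjusted p = 0.0034). Qrfpr and Ccl20 fell by 0.91 and 0.52 with bypass in diabetic rats. Genes low in Control+RYGB were Tpd52l1, a vesicle trafficking protein, at 3.09 ± 0.40 (SE, limma adjusted p = 0.0034), Cdh13, the adiponectin-binding cadherin, at 2.90 ± 0.28 (SE, limma adjusted p = 0.0014), and Fgf18, a growth factor, at 2.71 ± 0.27 (SE, limma adjusted p = 0.0014). Their bypass effects in diabetic rats, between 0.75 and 0.87 (Tpd52l1 0.75 ± 0.30, Cdh13 0.76 ± 0.21, Fgf18 0.87 ± 0.20), were not called.

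Control+Sham alone lay apart where diabetes and bypass each changed the level in the same direction. All 81 genes with Control+Sham high fell both with diabetes in sham rats and with bypass in non-diabetic rats (7.82% and 10.1% of all genes). This again nearly follows from how the class was defined. Irf7 read 0.77, 0.70 and 0.84 on the Control+Sham arrays, -0.93, -0.82 and -0.87 on DM+Sham, -0.93, -0.98 and -0.95 on Control+RYGB and -0.24 and -0.17 on DM+RYGB, and this interferon regulatory factor is taken up again with its list. Cyp1a1 read -3.26, -3.25 and -2.90 on the Control+Sham arrays, 1.34, 0.55 and 0.49 on DM+Sham, -0.93, -0.93 and -0.96 on Control+RYGB and 0.28 and 0.05 on DM+RYGB. Cyp1a1, a target of the aryl hydrocarbon receptor, lay low in Control+Sham on all arrays, and the gene rose by 4.07 ± 0.25 with diabetes and by 2.20 ± 0.25 with bypass in non-diabetic rats. Its interaction was -2.97 ± 0.37 (SE, limma adjusted p = 0.0028). Gldn, gliomedin, had 8.46 ± 1.20 (SE, limma adjusted p = 0.0045) and lay at -0.56 to -0.38 in Control+Sham against -9.10 to -5.08 elsewhere, with 2 of 3 DM+Sham arrays well above background. Kng2l1, a kininogen, and Serpina5, an inhibitor of activated protein C, lay low in Control+Sham, with -2.22 ± 0.30 (SE, limma adjusted p = 0.0038) and -2.10 ± 0.35 (SE, limma adjusted p = 0.0082). S100a4, a calcium-binding protein of fibroblasts, lay high, with 1.72 ± 0.17 (SE, limma adjusted p = 0.0015). Cd96, a receptor of T and NK cells, was not well above background in DM+Sham, where Control+Sham was at least 29.5-fold higher, with an interaction of 5.87 ± 0.38 (SE, limma adjusted p = 0.00037).

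Several genes of this class belonged to urothelium and surface epithelium. Of 20 measured 12 were higher by limma in the interaction and none lower, also at an unadjusted p under 0.05 (6.54% and 11.7% of all genes), with a median of 1.65. Of the 12, 6 had Control+Sham high (81 of all 939 genes called higher) and 3 had DM+RYGB high (166 of the 939). The count was 13 without DM+RYGB 1 and 13 without DM+RYGB 2. Among bypass rats 6 of the 20 rose with diabetes (7.62% of all). The list's summed signal was 10.4 to 10.8 in Control+Sham, 6.03 to 6.13 in DM+Sham, 6.11 to 6.33 in Control+RYGB and 13.6 to 16.6 in DM+RYGB. Upk1b read 0.87, 0.78 and 0.68 on the Control+Sham arrays, -2.09, -1.97 and -1.92 on DM+Sham, -2.82, -2.83 and -2.79 on Control+RYGB and -1.02 and -1.54 on DM+RYGB. Upk1b is a uroplakin of the bladder and pelvis lining, and Control+Sham lay above DM+RYGB, which lay above both other groups. Its interaction was 4.32 ± 0.24 (SE, limma adjusted p = 0.00026). Upk2, another uroplakin, had 7.19 ± 0.50 (SE, limma adjusted p = 0.00046) but was well above background on 1 of 3 DM+Sham and 1 of 2 DM+RYGB arrays. Msln read -1.16, -1.04 and -1.23 on the Control+Sham arrays, -5.71, -5.52 and -5.64 on DM+Sham, -2.93, -2.81 and -2.80 on Control+RYGB and 0.07 and -0.39 on DM+RYGB, and mesothelin, a surface protein of mesothelium, had an interaction of 7.21 ± 0.23 (SE, limma adjusted p = 6.8e-05). Such genes mark the lining of the renal pelvis and surface, and the part of these cells in other results was not tested.

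For all 5 smooth muscle genes called higher, DM+Sham and Control+RYGB both lay below Control+Sham and DM+RYGB, as they did for 60.5% of all genes called higher. Of 15 measured 5 were higher and 1 lower (6.54% and 11.7% of all genes), and the summed signal was 26.2 to 35.2 in DM+RYGB, 17.1 to 18.0 in Control+RYGB and 19.4 to 20.7 in both sham groups. Actg2, smooth muscle gamma actin, had 4.12 ± 0.15 (SE, limma adjusted p = 7.5e-05), Myh11, smooth muscle myosin, had 2.94 ± 0.21 (SE, limma adjusted p = 0.00048) and Cspg4, the pericyte proteoglycan NG2, had 1.00 ± 0.18 (SE, limma adjusted p = 0.01), which was not called without DM+RYGB 2.

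The lowest interactions of any named gene were those of crossed genes. Adtrp read -4.21, -3.97 and -3.74 on the Control+Sham arrays, 1.61, 1.76 and 1.74 on DM+Sham, 2.23, 2.19 and 2.18 on Control+RYGB and -1.48 and -2.17 on DM+RYGB. Adtrp is a membrane hydrolase of fatty acid esters of hydroxy fatty acids, and its 4 groups did not overlap. It rose with diabetes in sham rats by 5.65 ± 0.23 and with bypass in non-diabetic rats by 6.18 ± 0.23, and it fell by 3.50 with bypass in diabetic rats, an interaction of -9.68 ± 0.34 (SE, limma adjusted p = 6.8e-05). Jund read 0.78, 0.66 and 1.11 on the Control+Sham arrays, 4.47, 4.59 and 4.58 on DM+Sham, 5.13, 5.13 and 5.26 on Control+RYGB and 1.35 and 1.65 on DM+RYGB. Jund, the JUN family member of the AP-1 transcription factor, had the same high groups, an interaction of -7.34 ± 0.25 (SE, limma adjusted p = 6.8e-05), and a bypass effect of -3.02 ± 0.18 in diabetic rats against 4.31 ± 0.17 in non-diabetic rats.

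Further crossed genes with DM+Sham and Control+RYGB high were Tgfb2, a TGF beta ligand of fibrosis, at -4.06 ± 0.20 (SE, limma adjusted p = 0.00017), Sod3, the extracellular superoxide dismutase, at -2.52 ± 0.21 (SE, limma adjusted p = 0.00086), and Gstm1, a glutathione transferase, at -2.22 ± 0.17 (SE, limma adjusted p = 0.0006). Vom1r82, a vomeronasal receptor, was not well above background in DM+RYGB, and DM+Sham was at least 1.93-fold and Control+RYGB at least 3.76-fold higher, with an interaction of -5.41 ± 0.44 (SE, limma adjusted p = 0.00073). Pnoc read -1.86, -1.57 and -2.10 on the Control+Sham arrays, -5.86, -6.08 and -5.85 on DM+Sham, -4.86, -4.63 and -4.69 on Control+RYGB and -1.50 and -1.98 on DM+RYGB. Pnoc, the precursor of nociceptin, was high in Control+Sham and DM+RYGB, whose arrays overlapped, and its interaction was 7.09 ± 0.30 (SE, limma adjusted p = 0.00011). Krt20, a keratin of urothelium and injured epithelium, had 3.48 ± 0.23 (SE, limma adjusted p = 0.00042). Trim55 was not well above background on any DM+Sham array, where DM+RYGB was at least 25.6-fold and Control+Sham at least 7.36-fold higher, so its fitted interaction is no exact size. Trim55 and RGD1565959 had fitted interactions of 6.95 ± 1.42 (SE, limma adjusted p = 0.016) and 6.84 ± 1.42 (SE, limma adjusted p = 0.016), but for both the DM+RYGB arrays lay far apart (Trim55, a muscle protein, -4.92 and -1.33, the higher on the array with muscle signal, and RGD1565959 2.88 and -0.78).

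Bypass effects were called in opposite directions with and without diabetes in 209 genes (1.46%). In 101 (0.703%) the signal rose with bypass in diabetic rats and fell in non-diabetic rats, and in 108 (0.752%) the reverse held. The 5 largest fitted values of the former were, in no order, those of Msln, Pnoc, Slco1a1, Klk1c10 and Or52e51, and of the latter those of Adtrp, Jund, Slc27a5, Serpina10 and Vom1r82. The fitted values of Or52e51 and Vom1r82 rest on groups not well above background, so their rank is not set by these data. Or52e51, an olfactory receptor, was well above background on every Control+Sham and DM+RYGB array and on none of DM+Sham or Control+RYGB. For Or52e51, DM+RYGB was at least 3.71-fold above DM+Sham, and Control+Sham at least 30.0-fold above Control+RYGB, with an interaction of 10.77 ± 0.66 (SE, limma adjusted p = 0.00032). Klk1c10 read -0.86, -0.42 and -0.94 on the Control+Sham arrays, -4.10, -4.75 and -4.69 on DM+Sham, -4.66, -5.23 and -4.85 on Control+RYGB and -2.26 and -2.85 on DM+RYGB, and for this kallikrein both single-condition groups lay below Control+Sham and DM+RYGB, with an interaction of 5.96 ± 0.42 (SE, limma adjusted p = 0.00047).

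Interferon-stimulated genes were among the lists with the largest share of calls on the higher side. Of 40 measured 21 were higher and 3 lower (6.54% and 11.7% of all genes), and the median was 1.02 (0.89 and 0.82 with the other scalings, quantile and median). For 18 of the 21, DM+Sham and Control+RYGB both lay below Control+Sham and DM+RYGB, an order held by 568 of all 939 genes called higher (60.5%). The count of members higher was 22 without DM+RYGB 1 and 21 without DM+RYGB 2. In the separate comparisons 2 members rose and 19 fell with diabetes in sham rats (6.38% and 7.82% of all genes), 20 fell with bypass in non-diabetic rats (10.1%) and 9 rose with bypass in diabetic rats (7.07%). The summed signal of the 40 genes did not follow this order: it was 103 to 119 in Control+Sham, 83.4 to 90.2 in DM+Sham, 143 to 148 in Control+RYGB and 104 on both DM+RYGB arrays. Their median log2 level was -0.41 to -0.29, -1.15 to -1.13, -1.19 to -0.97 and -0.89 to -0.50 in the same groups. The lymphocyte and neutrophil list, measured beside it, summed to 4.42 to 5.71 over all 11 arrays, and macrophage genes to 57.4 to 70.3 in DM+Sham and 68.7 to 114 in the other groups, and their part in the interferon list was not tested.

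Isg15 read -0.24, -0.28 and -0.35 on the Control+Sham arrays, -2.19, -2.06 and -2.06 on DM+Sham, -1.62, -1.63 and -1.68 on Control+RYGB and -1.22 and -1.08 on DM+RYGB. Isg15, a ubiquitin-like modifier, was highest in Control+Sham and lowest in DM+Sham, with no overlap between groups. It fell by 1.83 with diabetes and by 1.35 with bypass in non-diabetic rats and rose with bypass in diabetic rats by 0.97 ± 0.11, an interaction of 2.32 ± 0.15 (SE, limma adjusted p = 0.00037). Irf7, the master regulator of the type I response, had 2.39 ± 0.14 (SE, limma adjusted p = 0.00027), and its DM+Sham and Control+RYGB arrays lay close together, below those of DM+RYGB. Ifit3 read -0.69, -0.60 and -0.80 on the Control+Sham arrays, -2.50, -2.48 and -2.50 on DM+Sham, -1.45, -1.58 and -1.54 on Control+RYGB and -0.98 and -0.49 on DM+RYGB, and this antiviral protein, chosen after its values were seen to show its promoter, had 2.57 ± 0.23 (SE, limma adjusted p = 0.0011). The GAAA pair was present in 11 of 16 promoters of members called higher, 1 of 3 called lower and 8 of 11 measured and not called.

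The 3 members called lower were Cxcl10, Cxcl11 and Irf1, the last 2 named for that count after their values were seen. Cxcl10 read 2.70, 2.66 and 2.70 on the Control+Sham arrays, 1.12, 1.00 and 1.02 on DM+Sham, 5.39, 5.32 and 5.36 on Control+RYGB and 0.96 and 0.70 on DM+RYGB. Cxcl10, a chemokine for T cells, lay highest in Control+RYGB, where most other interferon genes were low, and DM+Sham and DM+RYGB lay lowest and did not overlap. It rose with bypass in non-diabetic rats by 2.68 ± 0.11 and fell by 1.62 with diabetes in sham rats, an interaction of -2.92 ± 0.16 (SE, limma adjusted p = 0.00024). Cxcl11, its close relative, and Irf1, the factor downstream of interferon gamma, also rose with bypass in non-diabetic rats, by 1.65 ± 0.09 and 1.07 ± 0.13. The plot of group means sets this list beside proximal tubule and clock genes.

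**Figure D4:**
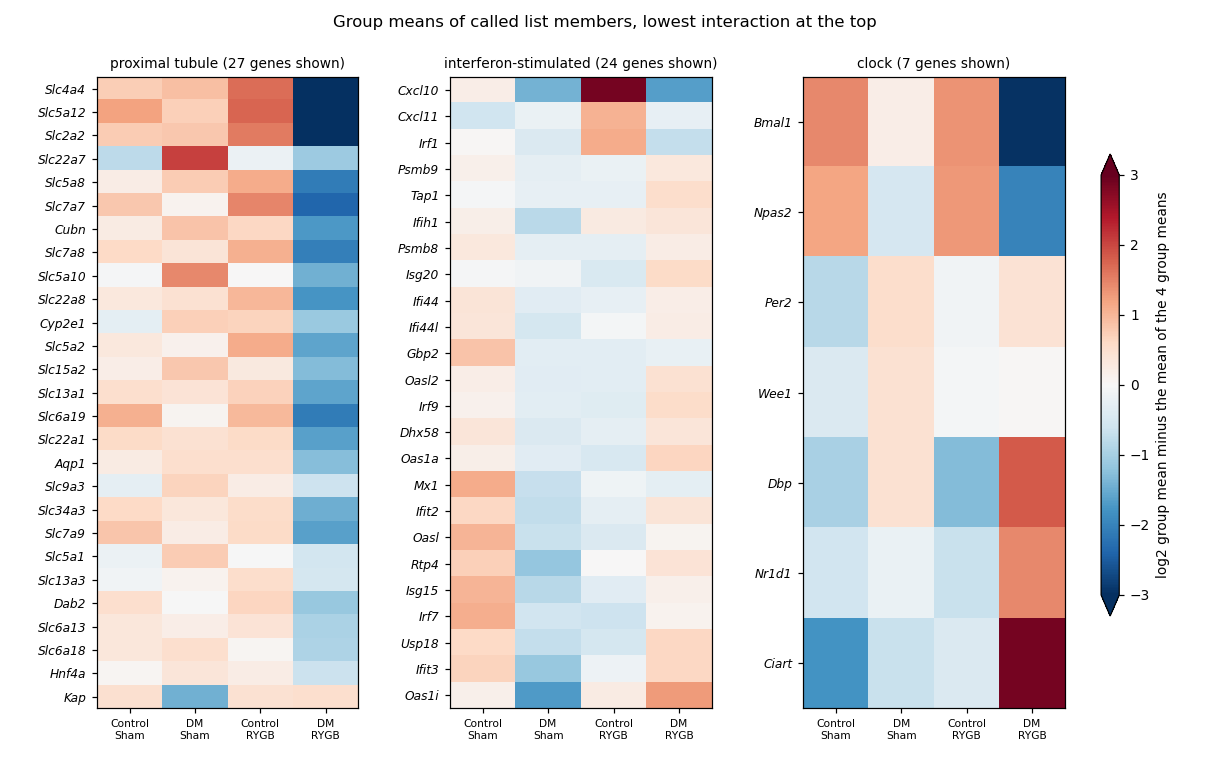
Group means of called members of the proximal tubule, interferon-stimulated and clock lists, as log2 difference from the mean of the 4 groups, with genes ordered by interaction from the lowest at the top and colours limited at 3 in either direction. Proximal tubule members are mostly lowest in DM+RYGB, most interferon members are low in DM+Sham and Control+RYGB with Cxcl10 high in Control+RYGB, and Bmal1 and Npas2 are low while Dbp, Nr1d1 and Ciart are high in DM+RYGB.

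NADPH supply, AMPK and oxidant genes were examined because the series title names NADPH synthesis and AMPK. AMPK is the kinase that senses low energy, and NADPH feeds both antioxidant enzymes and the NADPH oxidases. Me1, cytosolic malic enzyme, had an interaction of 0.01 ± 0.22 (SE, limma adjusted p = 0.98), so that a difference in bypass effect was not detected for it. Idh1 read 3.33, 3.34 and 3.22 on the Control+Sham arrays, 2.66, 2.73 and 2.73 on DM+Sham, 3.64, 3.66 and 3.65 on Control+RYGB and 1.67 and 1.38 on DM+RYGB. Idh1, cytosolic isocitrate dehydrogenase, was lowest in DM+RYGB with no overlap, and its interaction was -1.52 ± 0.17 (SE, limma adjusted p = 0.0022). H6pd, the NADPH source of the endoplasmic reticulum, had -1.14 ± 0.20 (SE, limma adjusted p = 0.01), and Mthfd2l, a mitochondrial folate enzyme, 1.22 ± 0.16 (SE, limma adjusted p = 0.0034). Of 20 NADPH-producing enzymes 3 were lower and 1 higher, shares near those of all genes. Pgd is not reported, as no probe was named for it.

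The AMPK catalytic subunits Prkaa1 and Prkaa2 had interactions of 0.48 ± 0.13 (SE, limma adjusted p = 0.045) and -0.08 ± 0.40 (SE, limma adjusted p = 0.9). Prkaa1 did not keep its call under the other scalings, and Prkaa2 was 0.42 without DM+RYGB 1 and -0.59 without DM+RYGB 2 (limma adjusted p = 0.023). Prkag1 read 0.27, 0.21 and 0.12 on the Control+Sham arrays, 0.03, 0.06 and 0.05 on DM+Sham, -0.15, -0.03 and -0.19 on Control+RYGB and 0.82 and 0.79 on DM+RYGB, and this regulatory subunit lay highest in DM+RYGB, with 1.10 ± 0.14 (SE, limma adjusted p = 0.0028). Stk11, the upstream kinase LKB1, rose with diabetes in sham rats by 0.98 ± 0.10 and had -0.56 ± 0.15 (SE, limma adjusted p = 0.035). The interaction of Stk11 was weaker in 11 of 23 alternative runs. Sesn2, a stress protein that activates AMPK, had -1.30 ± 0.20 (SE, limma adjusted p = 0.006). Of 27 AMPK genes 1 was higher and 2 lower, beside 6.54% and 11.7% of all genes.

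Nox4 read 0.38, 0.39 and 0.29 on the Control+Sham arrays, -1.53, -1.49 and -1.50 on DM+Sham, 0.72, 0.77 and 0.78 on Control+RYGB and -1.99 and -2.66 on DM+RYGB. Nox4, the main NADPH oxidase of tubules, was low in both diabetic groups and lowest in DM+RYGB, and its interaction was -1.21 ± 0.28 (SE, limma adjusted p = 0.024). The interaction of Nox4 was weaker in 8 of 23 alternative runs. Gpx3, the plasma glutathione peroxidase made by proximal tubule, had -3.80 ± 0.22 (SE, limma adjusted p = 0.00028). Of 44 oxidase and antioxidant genes 9 were lower and 2 higher, and 7 of the 9 had DM+Sham and Control+RYGB both above the other groups. Over all genes 11.7% were lower and 6.54% higher, and 49.2% of those lower had this order.

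The remaining lists had calls on both sides (6.54% higher and 11.7% lower over all genes). Xenobiotic and steroid enzymes had 10 lower and 4 higher of 36, with Cyp2e1, the ethanol-oxidising P450, at -2.80 ± 0.17 (SE, limma adjusted p = 0.0003) and Cyp2c11, a male-pattern P450, on the higher side. Cyp2c11 read 0.60, 0.72 and 0.66 on the Control+Sham arrays, -5.22, -5.40 and -5.40 on DM+Sham, -2.24, -2.42 and -2.26 on Control+RYGB and -2.87 and -2.98 on DM+RYGB, so that Control+Sham lay above all other groups and DM+Sham lowest. Cyp2c11 had an interaction of 5.34 ± 0.16 (SE, limma adjusted p = 6.8e-05). Tubular injury genes had 7 higher and 6 lower of 27, with a median that changed sign with the scaling (0.13 and 0.25 against -0.07), and Tff3, a trefoil peptide of epithelial repair, fell by 6.53 with diabetes in sham rats and rose with bypass in diabetic rats by 3.45 ± 0.22. Matrix and fibrosis genes had 6 higher and 9 lower of 38, inflammation genes 5 and 8 of 42, and immediate early genes 3 and 5 of 29. Fbn1, the microfibril protein fibrillin, had 1.61 ± 0.14 (SE, limma adjusted p = 0.0011) and Egr2, an immediate early transcription factor, -1.83 ± 0.17 (SE, limma adjusted p = 0.0012). Insulin, IGF and glucocorticoid genes had 2 higher and 7 lower of 32, chaperones 2 and 6 of 32, lipid synthesis 4 and 5 of 39, and the renin-angiotensin system 1 and 2 of 13. Elovl2, an elongase of polyunsaturated fatty acids, and Dhcr7, the last enzyme of cholesterol synthesis, had -3.21 ± 0.27 (SE, limma adjusted p = 0.00088) and -2.17 ± 0.22 (SE, limma adjusted p = 0.0015), both with DM+RYGB low, and Pmvk, phosphomevalonate kinase, had 1.27 ± 0.16 (SE, limma adjusted p = 0.0032) with Control+RYGB low. The chaperones Calr and Hyou1 had -1.46 ± 0.15 (SE, limma adjusted p = 0.0016) and -0.95 ± 0.14 (SE, limma adjusted p = 0.0054), and Igfbp6, a binding protein of IGF2, had 1.06 ± 0.14 (SE, limma adjusted p = 0.0033). Enpep and Ctsa, peptidases that process angiotensins, had -0.98 ± 0.15 (SE, limma adjusted p = 0.006) and -1.52 ± 0.35 (SE, limma adjusted p = 0.024). Cma1, a mast cell chymase that makes angiotensin II, had 2.12 ± 0.16 (SE, limma adjusted p = 0.00054), and Il33, an alarmin of the IL1 family, had -2.60 ± 0.17 (SE, limma adjusted p = 0.00042).

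Of 41 cell cycle genes 3 were called higher and 2 lower. For this list and those that follow, the shares over all genes were 6.54% higher and 11.7% lower. At an unadjusted p under 0.05 in limma, 20 cell cycle genes were higher and 4 lower. With diabetes in sham rats 21 of them fell (7.82% of all genes), and with bypass in non-diabetic rats 11 fell and 2 rose (10.1% and 4.94%). Other lists with few calls were macrophages (1 higher and 1 lower of 29, with 9 and 1 at an unadjusted p under 0.05), lymphocytes and neutrophils (2 and 1 of 27), fat and adrenal (1 and 0 of 22) and red blood cells (0 of 12 by limma, none higher and 2 lower at an unadjusted p under 0.05, with summed signal of 22.2 and 160 on the DM+RYGB arrays). The cell cycle members included Kif11, a spindle kinesin, at -2.15 ± 0.23 (SE, limma adjusted p = 0.0018), Nuf2, a kinetochore protein, at 1.79 ± 0.18 (SE, limma adjusted p = 0.0014), and Mcm6, a replication helicase subunit, at 1.48 ± 0.16 (SE, limma adjusted p = 0.0018). Among immune genes, Gzmb and Prf1, the granzyme and perforin of killer cells, had 2.91 ± 0.43 (SE, limma adjusted p = 0.0054) and 1.64 ± 0.19 (SE, limma adjusted p = 0.0023), Itgam, the integrin CD11b of myeloid cells, had 2.27 ± 0.35 (SE, limma adjusted p = 0.0061), and Ptprc, the leukocyte antigen CD45, had -0.58 ± 0.16 (SE, limma adjusted p = 0.045), not called without DM+RYGB 1. Skeletal muscle genes had 1 higher and 2 lower of 23, with Tnnt1, a slow troponin, at 1.22 ± 0.15 (SE, limma adjusted p = 0.0026), Casq1, calsequestrin, at -1.09 ± 0.20 (SE, limma adjusted p = 0.011) and Myl11, a fast myosin light chain, at -0.67 ± 0.19 (SE, limma adjusted p = 0.042).

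Several counts moved by over 1.5 times with the DM+RYGB arrays. Without DM+RYGB 1, calls were 5 higher and 9 lower for glucose, 4 and 9 for lipid synthesis, 1 and 6 for NADPH enzymes, 4 and 13 for oxidase and antioxidant genes, 4 and 7 for thick limb and distal tubule, 4 and 3 for podocyte, 6 and 3 for endothelium, 7 and 9 for injury, 6 and 5 for immediate early, 5 and 9 for insulin and IGF, 7 and 2 for skeletal muscle, 8 and 2 for smooth muscle, 2 and 9 for chaperone, 1 and 4 for renin-angiotensin, 4 and 1 for lymphocyte, 5 and 3 for cell cycle, 2 and 0 for respiratory chain, 0 and 2 for red blood cell and 6 and 1 for fat and adrenal genes. Without DM+RYGB 2 they were 4 and 8 for lipid synthesis, 1 and 5 for AMPK, 7 and 12 for xenobiotic enzymes, 10 and 4 for thick limb and distal tubule, 6 and 1 for podocyte, 3 and 10 for immediate early, 8 and 8 for inflammation, 2 and 12 for insulin and IGF, 2 and 2 for renin-angiotensin, 3 and 2 for skeletal muscle, 7 and 2 for smooth muscle, 5 and 1 for cell cycle, 0 and 3 for respiratory chain, 0 and 4 for red blood cell, 1 and 2 for fat and adrenal and 3 and 3 for macrophage genes.

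The plot of all 37 lists gives their shares of calls in order of their medians.

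**Figure D5:**
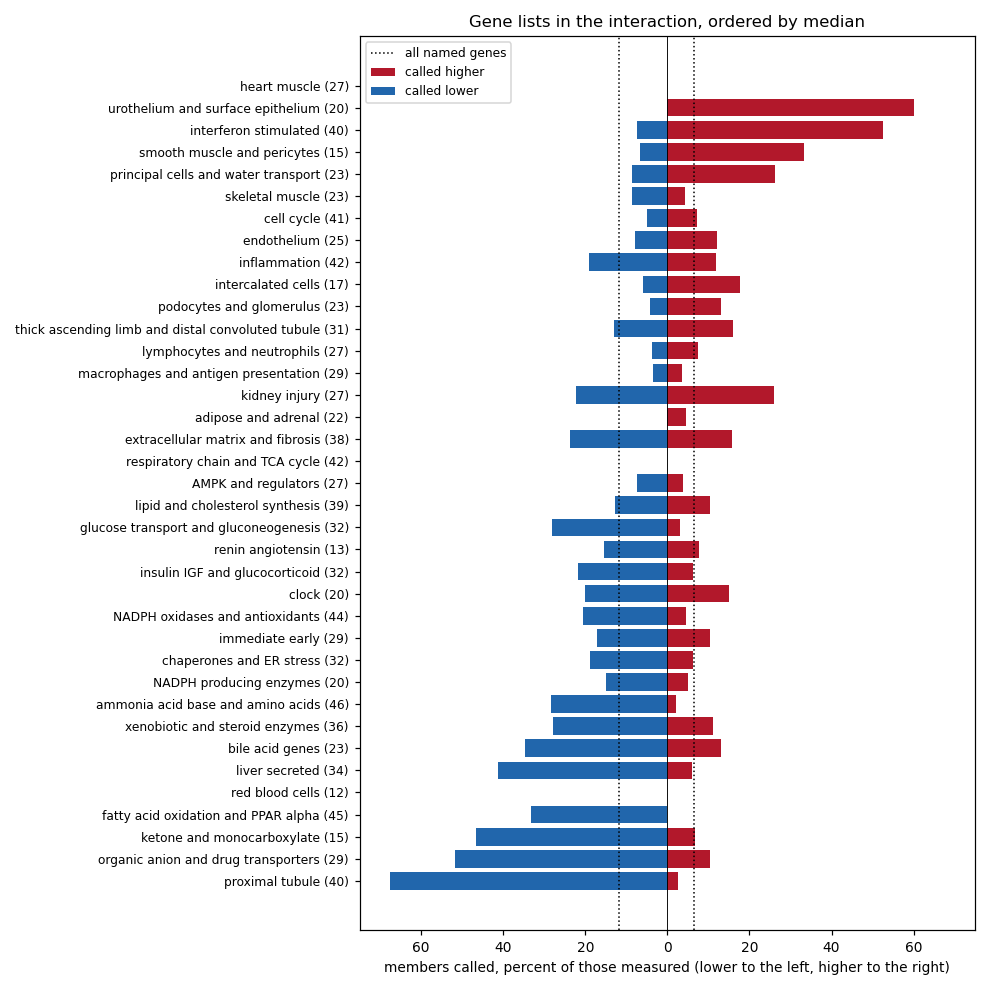
Share of measured members called higher (right) and lower (left) in the interaction for 37 gene lists, ordered by median interaction, with the number measured in brackets and dotted lines at the shares of all named genes (6.54% higher, 11.7% lower). Urothelial and interferon lists extend farthest to the right, proximal tubule and organic anion transporter lists farthest to the left, and heart muscle, with the highest median, has no called member with both DM+RYGB arrays in the fit.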

How the data were processed

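Total RNA of renal cortex was labelled with Cy3 and hybridised to 1-colour Agilent rat 4x44K arrays. The deposited files hold spot intensity from Agilent Feature Extraction 11.0.1.1, per the file headers, with background subtracted by the scanner software. The authors also deposited log2 values per array, whose normalization is not given in the sources used here (each array's median 7.074, correlation with the scanner's log2 signal 0.9887 to 0.9969). From 44254 spots, 1377 controls were removed, spots of a probe were averaged, log2 signals were set relative to each array's 75th percentile, and probes well above background on fewer than 2 arrays were left out. Genes were named through RefSeq (GRCr8) by accession: 18005 of 30367 probes had a name, and the brightest probe stood for its gene. The called genes had 537 other probes in the fit. Of these, 447 had the sign of the brightest probe, 208 were called the same way and 6 were called the other way. A gene's call is thus that of 1 probe, and its other probes did not always share it. limma 3.58.1 in R 4.3.3 fitted the 4 groups over 9 samples, with Benjamini-Hochberg adjustment over all 28489 probes. Tested on simulated data, this fit recovered 52% of 50 probes raised by 2 and 54% of 50 lowered by 2 on the log2 scale, and 6% and 2% at 1. All other simulated probes had no interaction, while 6626 probes passed in the real data with the 75th percentile alone. The adjustment is stricter where few probes change, and the 3 scalings were not simulated. These rates therefore do not give the share of real differences found here. Members, the 37 gene lists and tests were chosen with earlier results of these data known. Some genes stand in several lists and are counted in each, as Slc27a5 in the bile acid and fatty acid lists. Named genes are the 3 highest and 3 lowest per class among called genes well above background on 6 or more arrays that kept their call without each DM+RYGB array, the 3 with the smallest p per list, 5 opposite effects each way and a fixed set; others are marked in the text, and some genes that the rule names are not reported here, though counts include them. Replicate numbers did not pair the samples (correlations of deviations -0.379 to 0.45). Alternatives covered scaling, background correction, filters, arrays left out, separate arrays, scan day and replicate number as blocks, and a 2-fold minimum. The precision is limited by the number of arrays.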

Additional observations from a re-analysis of the deposited data

Results flagged for a closer look

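The interaction is itself a test of whether the bypass effect differed between diabetic and non-diabetic rats, and it did for 1858 probes on the higher and 2747 on the lower side (limma, adjusted p under 0.05 with 3 scalings). The genes whose bypass effects were called in opposite directions and whose fitted values were largest are given with their log2 interaction. On the higher side these were Or52e51 at 10.77, Msln at 7.21, Pnoc at 7.09, Slco1a1 at 6.87 and Klk1c10 at 5.96. On the lower side they were Adtrp at -9.68, Jund at -7.34, Slc27a5 at -7.18, Vom1r82 at -5.41 and Serpina10 at -5.32. Or52e51 and Vom1r82 were not well above background in at least 1 group, so their fitted values depend on signals near background.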

How the results depend on the processing

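Precision is limited by 9 samples, and the muscle signal of DM+RYGB 2 was not removed from any value. Of 115 named genes, 111 were called under the 3 scalings, and none of those called reversed under any alternative run. Relative to the 1858 probes higher and 2747 lower, taking each of the 11 arrays as a sample gave 3297 and 4569, adding the replicate number as a block to these 11 arrays gave 2887 and 4158, scan day as a block gave 89 and 115, and a 2-fold minimum gave 196 and 293; the cause was not tested. The numbers did not pair the samples (median correlation 0.0454 over 15 same-numbered pairs). With scan day as a block 7 proximal tubule genes were lower and 1 interferon and 4 urothelial genes higher, and with the 2-fold minimum 11 proximal tubule and 5 interferon genes. Scan day weakened 61 named genes, the 2-fold minimum 41, and each other alternative 0 to 12. Of 23 alternative runs, 14 weakened Prkaa1, 12 Ptprc, 11 each Stk11 and Myl11 and 8 Nox4. With median scaling alone 2206 probes were higher, against 3527 with the 75th percentile alone. By class, probes numbered 1622 for DM+RYGB, 311 for DM+Sham, 152 for Control+RYGB, 188 for Control+Sham and 124 crossed. With a gap of 2 times the range they were 871, 78, 29 and 88 for the first 4, and with the 75th percentile alone 628 for DM+Sham, 230 for Control+RYGB, 323 for Control+Sham and 521 crossed. With 11 separate arrays they were 534 for DM+Sham, 258 for Control+RYGB and 285 for Control+Sham. Without the averaged pair of DM+Sham arrays 1100 probes were higher and 1504 lower, with classes of 961 (DM+RYGB), 186 (DM+Sham) and 90 (Control+RYGB), and without Control+RYGB 1 they were 846 and 1390, with 902, 157, 63 and 125 for Control+Sham, and 12 interferon genes. Leaving out 1 sample at a time gave 736 (without Control+RYGB 2 and 3) to 2714 (without DM+RYGB 2) higher, 1271 (without Control+RYGB 2 and 3) to 3747 (without DM+RYGB 1) lower, classes of 786 to 2518 (DM+RYGB), 143 to 385 (DM+Sham), 60 to 194 (Control+RYGB) and 117 to 306 (Control+Sham), and 11 to 22 interferon genes. Me1, near 0 and not called, was -0.03 with 11 arrays, -0.00 with the replicate block, -0.01 with scan day, -0.19 with median scaling and -0.21 to 0.22 with a sample left out. Prkaa2, not called, was 0.42 without DM+RYGB 1 and -0.59 without DM+RYGB 2.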
